A study of Mus musculus with 6 samples.

Results

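A set of 10 liver genes of the acute phase response was followed, chosen by name from the 40803 genes of the raw count table. They are 7 positive acute phase genes (Lcn2, Lrg1, Itih3, Itih4, Steap4, Cp and Hpx) and 3 negative ones (Alb, Ttr and Ahsg). All 10 passed the filter on low counts, which kept 16327 genes. RNA-seq was performed on livers of 6 male C57BL6 mice, injected through the tail vein at about 6 weeks of age and sampled 4 weeks later, with 1 library per mouse. The scramble group (rAAV8-Scramble, 3 mice) received a recombinant adeno-associated virus with a scrambled short hairpin RNA, and the knockdown group (rAAV8-Hnf1aos1, 3 mice) received the same type of virus with a hairpin against the lncRNA Hnf1aos1. The study describes a U6 promoter, which is active in most cell types, in front of the hairpin and an EGFP reporter on the construct. Mice without virus were not analysed here, so both groups carried a virus and a hairpin.

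The acute phase response is the change in plasma proteins that the liver makes when the body meets infection or injury. Interleukin-6 acts through the receptor gp130 and the transcription factor STAT3, and interleukin-1 acts through NF-kappaB and C/EBP factors, to raise the transcription of positive acute phase genes in hepatocytes. Negative acute phase proteins are mostly abundant carriers whose production falls during the response, and liver-enriched factors such as HNF1 maintain their genes. The question the design puts to these genes is whether both classes differed between livers with the hairpin against Hnf1aos1 and livers with the scrambled one.

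Of the 7 positive genes, 6 were higher in every knockdown library than in every scramble library, and Lcn2 was far higher in 2 of the 3 knockdown libraries. Across all genes tested, 15.2% showed such a separation upward. Of these 7, only Cp and Hpx passed the test, with increases of 1.45-fold and 2.00-fold. Thus 2 of 7 positive genes were called higher and 0 lower, against 3.09% and 3.23% of all genes. Among the negative genes 0 were called lower by edgeR, DESeq2 or limma voom, and 0 were lower at an unadjusted p under 0.05. Alb and Ttr overlapped between the groups. Ahsg rose 1.43-fold, was higher in every knockdown than in every scramble library, and was called higher (adjusted p = 0.0345). So 1 of 3 negative genes was called, and in the upward direction. The median log2 fold change was 1.00 for the positive genes, 0.12 for the negative genes and −0.00040 for all genes tested.

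A gene was called when its adjusted p was under 0.05 in the quasi-likelihood test of edgeR, with p-values adjusted over all genes tested by the Benjamini-Hochberg method, and every adjusted p given here is from that test unless another tool is named. A normalized count is a count scaled by the TMM size of its library. Gene counts per library were 14704746 to 16532510 in the scramble group and 18021614 to 19462398 in the knockdown group. Hnf1aos1 itself had normalized counts of 512, 491 and 620 in scramble replicates 1, 2 and 3, and of 278, 258 and 433 in knockdown replicates 1, 2 and 3. The groups did not overlap (13.7% of all genes separated downward), but Hnf1aos1 missed the threshold (log2 fold change −0.74 ± 0.20 SE, adjusted p = 0.0625), and knockdown replicate 3 kept the most of it. In all, 505 genes were called higher and 527 lower (6.32% in either direction), and this split was 3030 to 364 with library sizes from the spike-ins, 320 to 728 with library totals and 200 to 394 with TPM. The spike-in sizes moved the median of all genes by 0.20 on the log2 scale. The hepatocyte markers Apob, Cps1 and Hnf4a were abundant in every library, and the summed normalized count of 10 hepatocyte markers was 591983 to 689264 in the scramble and 675685 to 712663 in the knockdown group. In bulk liver, fewer cells of a type and less RNA per cell cannot be told apart.

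A set of 4 short motifs was searched on both strands in 300-base promoters (250 bases before and 50 after the RefSeq start, GRCm38.p6), because the factors that bind such motifs carry the acute phase signals. The member genes had 10 promoters in this set, with a pair for Cp, and Ttr was not among them. The stretches below show upstream bases of the positive genes with a STAT motif and of Alb, the most abundant negative gene, with the motif matches in capitals.

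Steap4 (chr5:7960331-7960417, + strand, STAT then C/EBP): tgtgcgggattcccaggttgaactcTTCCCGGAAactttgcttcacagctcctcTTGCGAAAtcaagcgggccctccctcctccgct

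Itih4 (chr14:30886400-30886458, + strand, STAT): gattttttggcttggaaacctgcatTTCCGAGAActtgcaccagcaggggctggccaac

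Alb (chr5:90460751-90460869, + strand, C/EBP then HNF1): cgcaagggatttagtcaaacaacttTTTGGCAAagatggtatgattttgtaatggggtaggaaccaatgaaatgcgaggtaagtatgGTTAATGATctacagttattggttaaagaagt

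The STAT motif TTCNNNGAA lay in the promoters of Steap4 and Itih4, and in 8.3% of all 32851 promoters. The C/EBP motif TTGCNNAA lay in 6 of the 10 member promoters, those of Lcn2, Steap4, Cp, Hpx, Alb and Ahsg, and in 10.8% of all promoters. The HNF1 core GTTAATNAT lay in the Alb promoter and in a Cp promoter, and in 0.801% of all promoters. The NF-kappaB motif, GGGA followed by any 4 bases and CC, lay in the promoters of Steap4 and Cp, and in 20.7% of all promoters. The C/EBP motif was thus found in members of both classes. In the Steap4 stretch 1 match of the NF-kappaB motif on the other strand follows the C/EBP match in lower case, and the matches did not overlap each other. These are matches of letters in a window and no binding was measured.

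Lcn2 (chr2:32384633-32388252, minus strand, GRCm38) encodes lipocalin-2, which binds bacterial siderophores and so keeps iron from bacteria. Its normalized counts were 15.4, 31.8 and 58.3 in scramble replicates 1, 2 and 3, and 433, 2035 and 53.4 in knockdown replicates 1, 2 and 3. Knockdown replicates 1 and 2 stood far above all other libraries, while knockdown replicate 3 lay below scramble replicate 3, so the groups overlapped. The raw count was 15 in scramble replicate 1, with a 95% exact Poisson interval of 8.40 to 24.7 that covers counting error only, and 59 (44.9 to 76.1) in knockdown replicate 3. The log2 fold change was 4.59 ± 1.68 (SE), with a 95% interval of 0.018 to 9.15 and an adjusted p of 0.212. Lcn2 had the largest point estimate of the 10 genes and the widest interval, and DESeq2 called it (adjusted p = 0.00886) where edgeR and limma voom (adjusted p = 0.322) did not. Without knockdown replicate 2 the log2 fold change was 2.80, and without knockdown replicate 3 it was 5.15, with adjusted p-values of 0.360 and 0.0905 from edgeR.

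Lrg1 (chr17:56119678-56122001, minus strand) encodes leucine-rich alpha-2-glycoprotein 1, a secreted protein that modulates TGF-beta signalling in vessels. In normalized counts, Lrg1 stood at 2147, 2522 and 2444 in the scramble mice and at 6837, 8814 and 3079 in the knockdown mice. Knockdown replicates 1 and 2 were 2.89 and 3.73 times the geometric mean of the scramble libraries, and replicate 3 lay just above the highest scramble library. The log2 fold change was 1.40 ± 0.41 (SE, adjusted p = 0.129), and without knockdown replicate 3 it was 1.73 with an adjusted p of 2.18e-06. The knockdown libraries thus spread 2.86-fold from lowest to highest, against 1.17-fold in the scramble libraries.

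Steap4 (chr5:7960457-7982213, plus strand) encodes a metalloreductase that reduces iron and copper and is induced by inflammatory cytokines. Steap4 reached normalized counts of 1606, 1701 and 1637 in the scramble libraries and 10357, 17992 and 3248 in the knockdown libraries. The scramble libraries were within 1.06-fold of each other, and the lowest knockdown library was still 1.91 times the highest of them, the widest gap of the 10 genes. The log2 fold change was 2.68 ± 0.69 (SE), a 6.39-fold change with a 95% interval of 1.77 to 23.1. It missed the threshold in edgeR (adjusted p = 0.112) and passed it in DESeq2 (adjusted p = 0.00144) and limma voom (adjusted p = 0.0225), and without knockdown replicate 3 (adjusted p = 0.000104 in edgeR). Its spread within the knockdown group, a coefficient of variation of 70.0% against 2.96% in the scramble group, was second only to that of Lcn2 among the 10 genes.

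**Figure D1:**
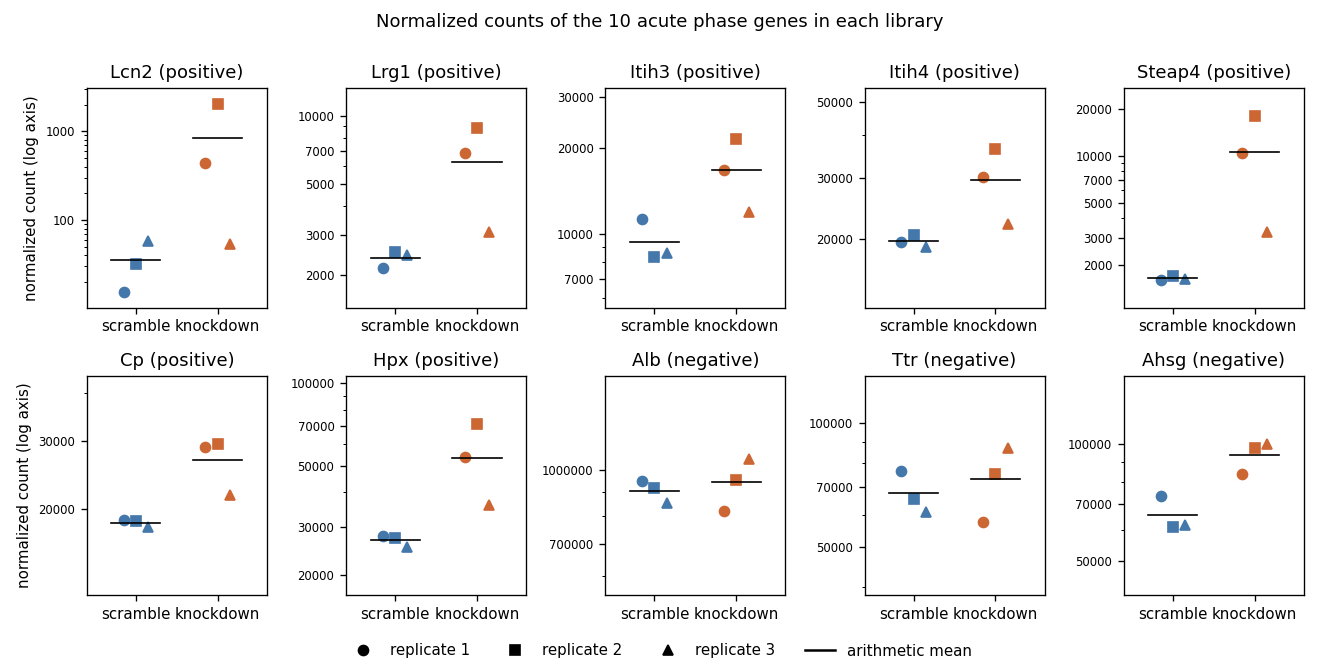
Normalized counts (log axis) of the 10 genes in the 3 scramble and 3 knockdown libraries, 1 panel per gene with its own range, with 1 symbol per replicate and a line at the arithmetic mean. In the 7 positive genes knockdown replicate 2 is the highest and replicate 3 the lowest knockdown library, and for Alb and Ttr the groups overlap.

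Hpx (chr7:105591613-105600137, minus strand) encodes hemopexin, which binds free heme in plasma and delivers it to the liver. Normalized Hpx counts of 27804, 27172 and 25371 were found in the scramble libraries, and of 53746, 71026 and 35842 in the knockdown libraries. Every knockdown library exceeded every scramble library, and the means were 26782 ± 1263 and 53538 ± 17593 (SD, n = 3). Hpx rose by 1.00 ± 0.22 (SE) on the log2 scale, a 2.00-fold change with a 95% interval of 1.42 to 2.82 and an adjusted p of 0.0361. The call was lost with library totals (adjusted p = 0.0504 in edgeR), without a filter on low counts (0.125), with TPM in limma (0.0851) and on leaving out any 1 library other than knockdown replicate 3 (0.0510 to 0.171).

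Cp (chr3:19957054-20009145, plus strand) encodes ceruloplasmin, the main copper protein of plasma and a ferroxidase. In the scramble libraries its normalized counts were 18707, 18641 and 17996, and they were 29033, 29572 and 21719 in the knockdown libraries. The scramble libraries were within 1.04-fold of each other, the tightest of the 10 genes, and the knockdown libraries all lay above them. Cp rose by 0.54 ± 0.13 (SE) on the log2 scale, a 1.45-fold change with a 95% interval of 1.20 to 1.76 and an adjusted p of 0.0336. On leaving out any 1 library other than knockdown replicate 3 its adjusted p was 0.0759 to 0.157, with TPM in limma it was 0.0988 and with the replicate number as a block in edgeR 0.0521. Cp overlaps Hps3 on the opposite strand, which had 210 to 294 raw counts against 16363 to 31119 for Cp, and the strand setting of the counting is not given in the sources used here.

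Itih4 (chr14:30886476-30902353, plus strand) and Itih3 (chr14:30908572-30923760, minus strand) encode inter-alpha-trypsin inhibitor heavy chains, secreted by hepatocytes. Heavy chain 3 is among those that are bound to hyaluronan in the extracellular matrix, and heavy chain 4 is cleaved by plasma kallikrein. The normalized counts of Itih4 were 19679, 20630 and 19022 in the scramble libraries and 30201, 36502 and 22208 in the knockdown libraries. Those of Itih3 were 11284, 8326 and 8574 in the scramble libraries and 16780, 21465 and 11903 in the knockdown libraries. Both genes were thus higher in every knockdown library, for Itih3 by a margin of 1.05 between the nearest libraries and for Itih4 of 1.08. Their log2 fold changes were 0.58 ± 0.16 and 0.83 ± 0.22 (SE), with adjusted p-values of 0.0554 and 0.0649. Both passed the threshold without knockdown replicate 3 (adjusted p = 0.00146 for Itih4 and 0.00115 for Itih3) and in DESeq2 (0.00316 and 0.000155).

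Itih4 and Itih3 lie 6218 bases apart, and Itih1 (chr14:30929180-30943289, minus strand), which encodes another heavy chain, lies 5419 bases beyond Itih3. Itih1 was not called, with a log2 fold change of 0.17 ± 0.11 (SE, adjusted p = 0.388). Per 100 Itih1 reads of the same library, Itih3 had 106, 87.1 and 87.5 reads in the scramble libraries and 172, 178 and 100 in the knockdown libraries. Knockdown replicates 1 and 2 lay above all scramble libraries in this ratio, and replicate 3 lay among them. The difference between the 3 neighbours was not tested.

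Alb (chr5:90460897-90476602, plus strand) encodes albumin, the main protein of plasma. Alb had normalized counts of 949731, 915424 and 851306 in the scramble libraries and 820185, 953791 and 1052390 in the knockdown libraries. Both the lowest and the highest value of the 6 came from knockdown livers, so the groups overlapped. The log2 fold change was 0.057 ± 0.13 (SE), with a 95% interval of −0.24 to 0.35 and an adjusted p of 0.841, and it was −0.014 with library totals, −0.025 with TPM and −0.027 without knockdown replicate 3. On the linear scale the 95% interval ran from 0.848 to 1.28 times the scramble level.

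Ttr, on chromosome 18, encodes transthyretin, which carries thyroxine and retinol-binding protein. The normalized counts of Ttr were 76415, 65620 and 60881 in the scramble libraries and 57525, 75346 and 86970 in the knockdown libraries. As for Alb, knockdown replicate 1 was the lowest and knockdown replicate 3 the highest of the 6. The log2 fold change was 0.12 ± 0.16 (SE), with a 95% interval of −0.23 to 0.46 and an adjusted p of 0.701, and it was −0.023 without knockdown replicate 3. Ttr was also 1 of the 3 genes whose log2 CPM over the 6 libraries was most like that of Alb (Pearson r = 0.982), after Pgs1 (0.998) and Fam174a (0.997). For Lcn2 the most alike were Saa2 (0.994), which encodes a serum amyloid A protein, Ccdc51 (0.991) and Gm7694 (0.990). These correlations are descriptions over 6 libraries that share their sizes and groups.

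Ahsg (chr16:22891277-22899449, plus strand) encodes fetuin-A, a carrier that keeps calcium phosphate soluble in plasma. For Ahsg the normalized counts were 73462, 61170 and 61740 in the scramble libraries and 83757, 97652 and 100200 in the knockdown libraries. All knockdown libraries lay above all scramble libraries, and unlike the positive genes, Ahsg was highest in knockdown replicate 3. Ahsg rose by 0.52 ± 0.12 (SE) on the log2 scale, a 1.43-fold change with a 95% interval of 1.19 to 1.73 and an adjusted p of 0.0345. Its adjusted p was 0.0799 with the replicate number as a block in edgeR and 0.0520 with TPM in limma, and it was 0.103 when scramble replicate 2 was left out, 0.157 when scramble replicate 3 was, and 0.121 when knockdown replicate 2 was. Ahsg overlaps Gm30505 on the opposite strand, which had 81 to 150 raw counts against 55729 to 110630 for Ahsg. Its neighbours Fetub, 18884 bases away, and Hrg each had a log2 fold change of 0.17 and were not called (adjusted p = 0.294 and 0.334).

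**Figure D2:**
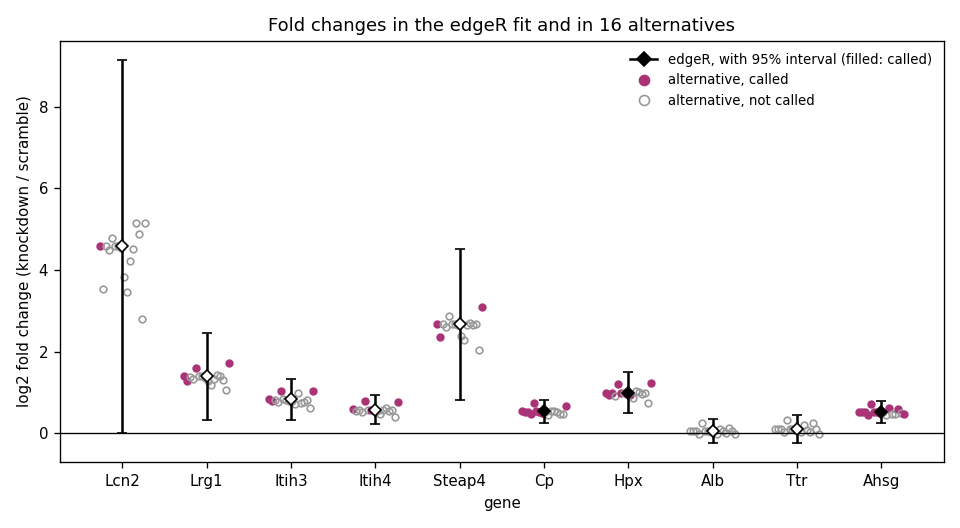
Log2 fold change (knockdown over scramble) of each gene in edgeR with its 95% interval (diamond) and in the 16 alternative fits (circles), filled where called. All estimates of the 7 positive genes and of Ahsg are above 0, those of Alb and Ttr lie on both sides of 0, and the widest interval is that of Lcn2, from 0.018 to 9.15.

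The 3 knockdown livers differed among themselves, and in a different order for the 2 classes. All 7 positive genes were highest in knockdown replicate 2, next in replicate 1 and lowest in replicate 3, an order that 15.7% of all genes tested had. All 3 negative genes were highest in replicate 3, next in replicate 2 and lowest in replicate 1, an order that 20.2% of all genes had. The genes of a class share their libraries, so these counts are no independent observations. In knockdown replicate 3 the log2 ratio to the geometric mean of the scramble libraries was 0.17 to 0.98 for the positive genes, and 0.22, 0.37 and 0.62 for Alb, Ttr and Ahsg. In knockdown replicate 2 it was 0.68 to 6.06 for the positive genes, with Cp lowest and Lcn2 highest. Hnf1aos1 was also least reduced in replicate 3, at 0.805 of that mean against 0.517 and 0.480 in replicates 1 and 2, and its part in these differences was not tested.

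**Figure D3:**
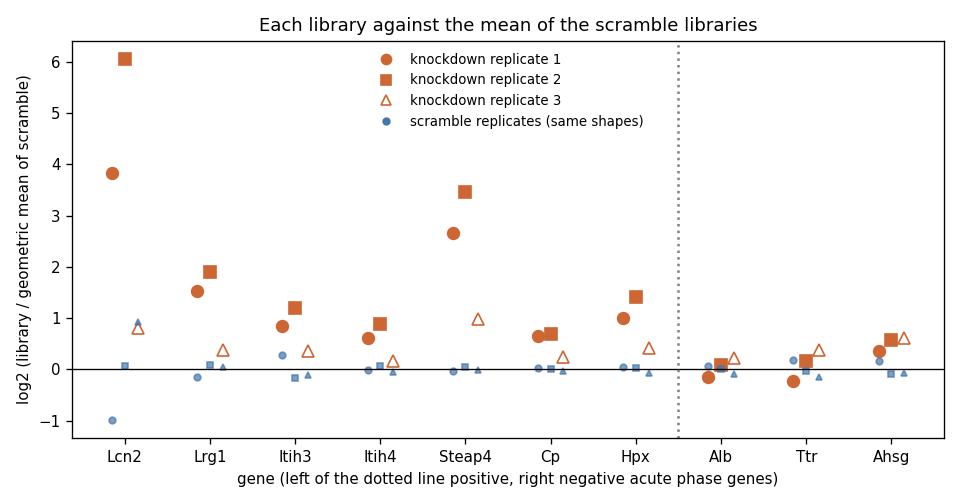
Log2 ratio of each library to the geometric mean of the scramble libraries for the 7 positive genes (left) and the 3 negative genes (right), with knockdown replicates as large and scramble replicates as small symbols. Knockdown replicate 3 (open triangles) lies at 0.17 to 0.98 for the positive genes, below replicates 1 and 2, and above both for Alb, Ttr and Ahsg.

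Leaving out knockdown replicate 3, 6 of the 7 positive genes were called higher by edgeR (all but Lcn2), where 6.06% of all genes were called higher. On leaving out any other 1 library, 0 of the 7 were called, against 0.228% to 1.75% of all genes, with edgeR as the only tool run on those sets. With all 6 libraries the 7 genes each had an unadjusted p under 0.05, which 12% of all genes passed upward. DESeq2 called all 7 on the 6 libraries, against 3.64% of all genes it tested, and limma voom called 5, those other than Lcn2 and Itih4, against 2.66% of all genes. With library sizes from the spike-ins 5 were called, those other than Lcn2 and Steap4, against 18.6% of all genes. With the replicate number as a block edgeR called 1 of the 7, Hpx, against 2.63% of all genes. The log2 fold changes of the 7 positive genes were above 0 in all of the 16 alternatives run, while the number that passed the test ran from 0 to 7.

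Comparing levels between genes needs values per length, and for this the deposited TPM values were used. In the scramble group Alb had 57212 ± 1961 TPM (SD, n = 3), the second highest of all genes, followed by Ttr with 6680 ± 690 and Ahsg with 5769 ± 579. Hpx (2357 ± 58.6 TPM) was the most abundant positive gene, before Itih4 (814 ± 15.4), Itih3 (362 ± 60.7), Cp (322 ± 3.18), Lrg1 (228 ± 20.9), Steap4 (68.4 ± 2.21) and Lcn2 (5.43 ± 3.49). The ranges of Ttr and Ahsg overlapped, as did those of Itih3 and Cp, and the other neighbours in this order were apart in the scramble group.

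In the knockdown group the mean TPM put Ahsg (7835 ± 503) before Ttr (6846 ± 1215) and Lrg1 (571 ± 264) before Cp (444 ± 78.5). Alb stood apart at 56372 ± 5543 TPM, Hpx had 4468 ± 1434 and Steap4 had 414 ± 283 (SD, n = 3). Ahsg, Ttr and Hpx overlapped in turn, as did Itih3, Lrg1, Cp, Steap4 and Lcn2. The TPM of Steap4 was 423, 692 and 126 in knockdown replicates 1, 2 and 3, all above the scramble range of 65.9 to 70.2. That of Lcn2 was 65.2, 288 and 7.62, and replicate 3 lay within its scramble range of 2.33 to 9.20.

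**Figure D4:**
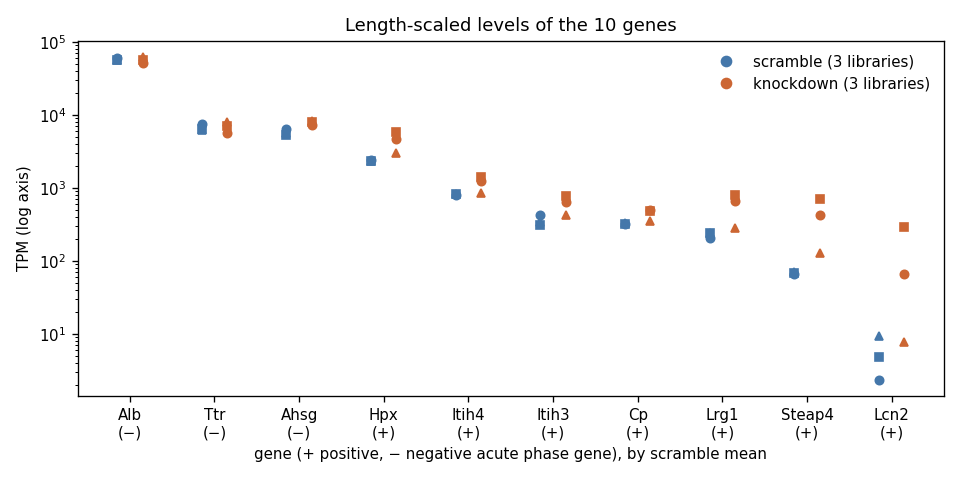
TPM (log axis) of the 10 genes in each scramble and knockdown library, ordered by the scramble mean, with circles, squares and triangles for replicates 1, 2 and 3. Levels run from 2.33 TPM for Lcn2 in scramble replicate 1 to 62146 TPM for Alb in knockdown replicate 3.

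The 3 negative genes took 6.48%, 6.13% and 6.02% of all gene counts in the scramble libraries and 5.59%, 6.32% and 7.03% in the knockdown libraries. The groups overlapped and their means were 6.21% ± 0.240 and 6.31% ± 0.719 (SD, n = 3), with p = 0.8 in an exact two-sided permutation test that cannot go below 0.1 with 3 against 3. Without knockdown replicate 3 the difference was −0.256 percentage points in place of 0.102. The 7 positive genes together took 0.469% ± 0.00822 and 0.822% ± 0.249 of the gene counts. For every 100 reads of the negative genes, the positive genes had 7.39, 7.58 and 7.71 reads in the scramble libraries and 15.3, 16.6 and 7.91 in the knockdown libraries. Knockdown replicates 1 and 2 thus had about 2 times the scramble ratio, and knockdown replicate 3 lay just above it.

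A ratio to Alb in the same library needs no scaling between libraries. For every 100 Alb reads there were 2.93, 2.97 and 2.98 Hpx reads in the scramble libraries and 6.55, 7.45 and 3.41 in the knockdown libraries. For Ahsg the values were 7.74, 6.68 and 7.25 against 10.2, 10.2 and 9.52, with the 3 knockdown livers close together. Steap4 and Lrg1 also did not overlap between the groups in this ratio, whereas Itih3, Itih4, Cp, Lcn2 and Ttr did. For Lrg1 the margin was small, with 0.293 in knockdown replicate 3 against 0.287 in scramble replicate 3. The share of all genes that separate in this ratio was not computed, so these separations cannot be set against a background. The ratio shows unequal change of the pair of genes, and not which of them changed.

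**Figure D5:**
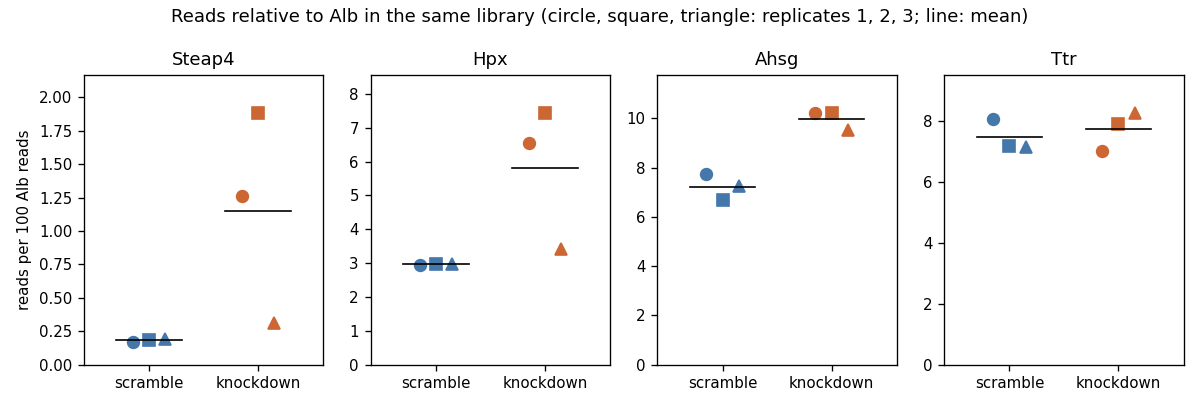
Reads of Steap4, Hpx, Ahsg and Ttr per 100 Alb reads in each library (linear axes from 0), with 1 symbol per replicate and a line at the mean. Ahsg is at 6.68 to 7.74 in the scramble and 9.52 to 10.2 in the knockdown libraries, and Ttr overlaps between the groups.

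Other genes of the same response were read from lists. Of 22 other positive acute phase genes, 4 were called higher and 0 lower, 16 did not overlap upward, and the median log2 fold change was 1.16. Of all genes, 3.09% were called higher and 15.2% separated upward. Those called were the 3 fibrinogen chains, which form the clot, and A2m, a broad protease inhibitor. Fga, Fgb and Fgg rose by 1.06, 1.11 and 1.04 on the log2 scale (adjusted p = 0.0141, 0.00682 and 0.0106). A2m rose by 2.61 (adjusted p = 0.0205) from low normalized counts of 1.10 to 3.08 to counts of 10.5 to 18.1. A2m passed the filter on low counts only through the knockdown libraries, where it is high, so its call gives no support to the count of 4. DESeq2 called 15 of the 22 higher and limma voom 8, against 3.64% and 2.66% of all genes. Without knockdown replicate 3 edgeR called 15, against 6.06% of all genes. In 21 of the 22, knockdown replicate 3 was the lowest knockdown library, against 35.9% of all genes.

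Of 10 other negative acute phase genes, 0 were called in either direction by edgeR or limma voom, and 1 was higher and 2 were lower at an unadjusted p under 0.05 in edgeR, which 11.4% of all genes passed downward. DESeq2 called 1 higher and 2 lower, and it called 3.47% of all genes lower, against 2.85% in limma voom. Without knockdown replicate 3 edgeR called 3 of the 10 lower (Serpina6, Apoa2 and Igfals) and 0 higher, against 5.17% of all genes called lower. With library sizes from the spike-ins it called 3 higher (Apoa1, Fetub and Hrg) and 0 lower, against 18.6% of all genes called higher and 2.23% lower. Their median log2 fold change was −0.0039, with 5 above and 5 below 0. The lowest was Serpina6, the corticosteroid-binding globulin, at −0.70 ± 0.24 (SE, adjusted p = 0.151), and the highest was Apoa1, the main protein of HDL, at 0.41 ± 0.12 (adjusted p = 0.0581). Like Alb, Ttr and Ahsg, 6 of these 10 had knockdown replicate 3 as their highest knockdown library, where 34.3% of all genes did.

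Of 17 genes that carry acute phase signals, 3 were called higher and 0 lower, against 3.09% and 3.23% of all genes. Their median log2 fold change was 0.25. Socs3, the feedback inhibitor of gp130 signalling, rose by 2.11 ± 0.34 (SE, adjusted p = 0.0169), from normalized counts of 57.5, 51.6 and 59.4 to 130, 325 and 272. Osmr, the oncostatin M receptor, rose by 0.67 ± 0.18 (adjusted p = 0.0477), and Il1r1, the interleukin-1 receptor, by 0.88 ± 0.19 (adjusted p = 0.0347). The largest negative value was that of Il6ra, the interleukin-6 receptor, at −0.42 ± 0.13 (adjusted p = 0.0801). DESeq2 called 8 of the 17 higher and limma voom 3, against 3.64% and 2.66% of all genes. Without knockdown replicate 3 edgeR called 6 higher, against 6.06% of all genes. Of the 17, 9 were lowest in knockdown replicate 3 and 6 had the order 2, 1, 3 of the positive genes, against 35.9% and 15.7% of all genes. Among the called genes, Socs3 was lowest in replicate 1, and Osmr and Il1r1 in replicate 3.

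Of 14 neighbours and relatives tested out of 15 listed, 1 was called, a count near the 6.32% of all genes called in either direction. It was Steap2, a metalloreductase of the same family as Steap4. It fell by 1.02 ± 0.19 on the log2 scale (SE, adjusted p = 0.0122), opposite to Steap4, from normalized counts of 123, 147 and 137 to 68.7, 52.3 and 79.7. The highest of this list was Kng1, the kininogen gene, at 0.30 (adjusted p = 0.108), and Steap1 had too few counts to be tested. Of 10 partners and receptors of the encoded proteins, 0 were called by edgeR, DESeq2 or limma voom, and 1 was higher at an unadjusted p under 0.05 in edgeR. Of all genes, 12% were higher at that p. DESeq2 called 3.64% of all genes higher and 3.47% lower, and limma voom 2.66% and 2.85%. They ran from Slc22a17, a lipocalin-2 receptor, at −0.37 to Lrp2, megalin, at 0.35.

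Lcn2 and Lrg1 are also made by neutrophils, and macrophages respond in the acute phase, so markers of other cells were read beside these results. Of 12 neutrophil markers only Csf3r had enough counts to be tested (0.44 ± 0.23 SE on the log2 scale, adjusted p = 0.276). Ly6g and Mpo were at 0 in all libraries. From scramble to knockdown replicates 1, 2 and 3, raw S100a8 counts went from 1, 1 and 2 to 7, 11 and 4. Those of S100a9 went from 2, 1 and 0 to 12, 9 and 6, so neither gene overlapped. Of all genes tested, 15.2% separated upward in normalized counts. Elane, Ltf, Cxcr2, Ngp and Camp overlapped and peaked in knockdown replicate 2, where Lcn2 did, at raw counts of 8, 7, 16, 4 and 2. S100a9 and Retnlg peaked in knockdown replicate 1, at 12 and 4, and Retnlg overlapped. Such low counts are near the floor. Mmp8 was highest in scramble replicate 1, at 6. The summed normalized count of the 12 markers was 48.3 to 73.7 in the scramble and 82.4 to 138 in the knockdown libraries, and most of it came from Csf3r. Of 10 macrophage markers 4 were called higher (Adgre1, Clec4f, C1qa and C1qb), with a median of 0.45, and their summed normalized count was 3427 to 4020 in the scramble and 4261 to 5303 in the knockdown libraries. With all 6 libraries edgeR called 3.09% of all genes higher and 3.23% lower. At an unadjusted p under 0.05 in edgeR, 12% of all genes were higher and 11.4% lower. Limma voom called 2 of the 10 higher, and edgeR called 7 without knockdown replicate 3, against 2.66% and 6.06% of all genes. In all 10, knockdown replicate 3 was the lowest knockdown library, as in the 7 positive genes and in 35.9% of all genes. None of 8 endothelial markers was called by edgeR, DESeq2 or limma voom, with 0 at an unadjusted p under 0.05 and a summed normalized count of 5347 to 5833 against 4974 to 5765. None of 7 lymphocyte markers tested was called by these tools either, with 1 at an unadjusted p under 0.05 and sums of 102 to 147 against 137 to 154. Of 4 adipocyte markers tested 1 was called lower, Cfd, with sums of 255 to 413 against 223 to 280. Of 6 muscle markers 0 were called by edgeR and 1 by DESeq2, all below 0 and 2 at an unadjusted p under 0.05, with sums of 898 to 3419 against 417 to 1102. Of the 10 hepatocyte markers 1 was called, Tat, which fell by 0.72 (adjusted p = 0.00766). The part of any of these cell types in the values of the 10 genes was not tested.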

How the data were processed

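RNA-seq of mouse liver was analysed in 6 libraries, 3 per group, grouped by sample titles. Per the study's methods, the authors trimmed the reads, aligned them with STAR (GRCm38) and used featureCounts on uniquely mapped reads in exons. The deposited raw counts are whole numbers per gene without normalization. The labels name GRCm39 in place of GRCm38, and rRNA depletion where the methods describe a stranded poly(A) kit. The authors also deposited TPM values, whose computation is not given in the sources used here. The deposited normalized counts and the table of the authors' comparison, which holds fold changes and p-values, were not used.

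Rows of 92 ERCC spike-ins entered neither the library sizes nor the tests (1.46% of all scramble and 1.21% of all knockdown counts). In R 4.3.3, edgeR 4.0.16 was run on the counts with TMM scaling, filterByExpr and robust quasi-likelihood fits, with the group as the only term. The biological coefficient of variation was 13.9%. DESeq2 1.42.0, limma 3.58.1 (voom, and log2(TPM + 0.1)), other scalings and filters, a replicate block and each library left out in turn were the alternatives. The share of the negative genes was tested with scipy 1.17.1, and figures were drawn with matplotlib 3.10.9. Scripts were tested on simulated data.

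All 10 genes were named, with the targeted gene. Of each of 5 further lists (other positive and negative acute phase genes, signalling genes, neighbours and relatives, partners and receptors) the rule named the genes called, or otherwise those with the largest change in each direction, and for Lcn2 and Alb the 3 most alike genes. The rule named no cell type markers. All markers in the text, and Itih1, Fetub, Hrg, Kng1, Apoa2, Igfals, Il6ra, Steap1, Hps3 and Gm30505, were chosen after their values were seen. The members and the lists were chosen with earlier results of these data known. Positions are those of GENCODE on GRCm38 and promoters those of RefSeq. Labels do not say that equal replicate numbers mark a shared batch, and pairs of the same number did not deviate together (correlations −0.0226, 0.0231 and 0.00321). Each library came from its own mouse. Pairs of libraries of a group differed by 7.69 to 31.7 in chi-square per gene, where sampling noise gives about 1.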

Additional observations from a re-analysis of the deposited data

How the results depend on the processing

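Lcn2 had the fewest reads of the 10 genes, with 15 to 59 raw counts in 4 of the 6 libraries. It also had the largest spread between knockdown libraries, with a coefficient of variation of 125%. Positive genes called higher numbered 2, and 7 with DESeq2, 5 with limma voom, 5 with spike-in sizes, 1 with library totals, 0 with TPM and 0 to 6 on leaving out 1 library, with 6 only without knockdown replicate 3. Negative genes called higher numbered 1, and 0 with TPM and 0 to 1 on leaving out 1 library. None of the 10 was called lower in any alternative. All genes called higher numbered 505, and 320 with library totals, 3030 with spike-in sizes, 870 without a filter on low counts, 200 with TPM and 38 to 1015 on leaving out 1 library. Those called lower numbered 527, and 1032 without the filter and 65 to 866 on leaving out 1 library. The difference in the share of the negative genes, 0.102 percentage points, was −0.256 to 0.462 on leaving out 1 library, with the negative value without knockdown replicate 3. The log2 fold change of Alb turned to −0.014 with library totals, −0.025 with TPM and −0.027 without knockdown replicate 3 (up to 0.14 on leaving out another library), and that of Ttr to −0.023 without knockdown replicate 3 (up to 0.26). The cause was not tested. The medians of the positive genes (0.75 to 1.22) and of the negative genes (−0.023 to 0.32) stayed within the spread between replicates. With the replicate number as a block, 1 positive gene (Hpx) and 0 negative genes were called higher. No pair of the same number correlated above 0.1 over all genes tested. This cannot show whether such pairs shared a batch that acted on some genes only, and the labels do not say.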
